A study of Mus musculus with 6 samples.

Results

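Cluster 10 of the control uterine epithelium was a group of 97 cells that the study's clustering of CO epithelial cells alone had set apart and that the study counted as luminal epithelium (LE), the cell layer that lines the uterine lumen. The cells were taken as all those with the number 10 in the deposited CO clustering and a column of counts, which was every one of the 97. They made up 3.76% of the 2583 clustered CO epithelial cells with counts (exact Clopper-Pearson 95% interval 3.06 to 4.56%) and 5.08% of the cells in the 9 luminal clusters (cluster 4, luminal progenitors in the study, is not counted among these). The cells came from uteri of CD-1 mice, 12 months old and chosen in estrus, that had received corn oil (CO) by injection on days 1 to 5 after birth, and 2 mice were pooled into 1 library. The companion library held the cells of 4 mice given 1 mg/kg/day of diethylstilbestrol (DES), a synthetic estrogen, on the same days. Adult DES mice are in persistent estrus. Sections of uterus from 2 CO and 2 DES mice, cut from tissue blocks that the study had cored around areas of interest, were measured with spatial arrays. Before blocks were chosen, the study had examined the DES tissue for uterine adenocarcinoma. Because the mice of a pool cannot be told apart and cluster 10 exists in 1 library, its values carry no error between animals. The clusters were formed on these same counts, so differences between clusters are given as descriptions with no test.

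The luminal epithelium is a simple columnar layer that responds to estrogen, secretes into the uterine fluid and receives the embryo, and it is continuous with the glands below it. Its cells are joined by claudins, which set what passes between cells, and move water and ions through channels such as aquaporins. Cells that receive a growth, stress or cytokine signal transcribe the immediate early genes, such as Fos, Jun and Egr1, within minutes and before any new protein is needed.

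The unique molecular identifiers (UMIs, which mark single captured RNA molecules) of a group of cells were summed and given as counts per 1000000 UMIs (CPM) with exact Poisson 95% intervals. Cluster 10 held 2762283 UMIs. Its cells had a median of 22002 UMIs (12041 to 77496) and 4512 genes, and 11.9% of their UMIs (median, 6.76 to 21.3%) came from mitochondrial genes. The other 8 luminal clusters (0, 1, 2, 5, 6, 7, 9 and 11) comprised 1811 cells, at a median depth of 25041 UMIs per cell and a median mitochondrial share of 10.4%. All 97 cells were called epithelial by the authors, none was marked as a doublet by Scrublet, and none shared its barcode with a cell of the DES library, although 180 barcodes occurred in both libraries. In the clustering of CO and DES epithelium together, 90 of the 97 cells lay in integrated cluster 0, 4 in cluster 1, 2 in cluster 14 and 1 in cluster 15.

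Cluster 10 carried the study's luminal genes and the epithelial marker at about the level of the other luminal clusters. The study picked its 8 luminal genes for being detected in most cells of the luminal clusters, cluster 10 among them, and in few cells of the gland clusters, so their levels describe the label and do not test it. Adgrg7, an adhesion receptor and 1 of these 8 (chromosome 16:56724609-56795855, minus strand, GRCm38), stood at 80.7 CPM (70.5 to 92.1) in cluster 10 and 70.0 CPM in the other luminal clusters. In the clusters outside the 9 luminal ones that carried gland genes it was lower, at 3.48 CPM in cluster 3 and 6.91 CPM in cluster 8. After each cell was thinned to 3000 UMIs, 16.5% of cluster 10 cells (9.73 to 25.4%) had a UMI of Adgrg7, against 18.7% of other luminal cells and 0.685% of mesothelial cells, a cell type that should lack it. Epcam, the epithelial adhesion molecule, was found in 96.9% of thinned cluster 10 cells and 23.7% of thinned mesothelial cells, and its level was 1135 CPM against 1048 CPM in the other luminal clusters. Of the 8 luminal genes that the study named, 7 lay within 2 times of the other luminal clusters, from 0.764 times for Pla2g2e to 1.34 times for Lrrc26. The exception was the interferon-inducible gene Ifi203, at 48.5 CPM against 129 CPM.

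Of 56 markers of other cell types, 44 had at least 1 UMI in cluster 10 and 12 had none. The 9 stromal markers summed to 349 CPM, within the range of the other luminal clusters (288 to 674 CPM) and far under the 26374 CPM of the CO stromal cells. The 6 smooth muscle markers summed to 7.96 CPM, the 5 endothelial ones to 11.2 CPM, the 7 lymphocyte ones to 6.88 CPM with 4 of them at 0 UMIs, and the 7 myeloid ones to 40.2 CPM with 1 at 0. Among the 4 ciliated cell markers 3 had no UMI. The 4 haemoglobin genes that served as erythrocyte markers came to 1331 CPM, close to the 1345 CPM of the other luminal clusters.

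Of 2908 genes with at least 50 CPM in cluster 10 or in the other luminal clusters and a UMI in at least 20% of cells where higher, 23 (0.791%) were at least 2 times higher in cluster 10 and 88 (3.03%) at least 2 times lower. The median ratio over all of them was 1.03. The higher genes included the claudins Cldn2 and Cldn10 and the enzyme gene Aoc1, and the lower genes included 15 of 18 immediate early genes. Intervals and limits cover counting error only.

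The largest ratio was that of Cldn2, a claudin that forms a channel for cations and water between cells (chromosome X:139800828-139811386, plus strand). It stood at 55.8 CPM (47.3 to 65.3) in cluster 10 against 10.9 CPM in the other luminal clusters, 5.11 times as high (4.25 to 6.10). Most of that comparison level came from cluster 11, at 124 CPM, since the other 7 luminal clusters lay between 1.67 and 6.35 CPM. Cldn10, another claudin of ion-selective junctions, was at 483 CPM against 134 CPM, 3.61 times as high (3.40 to 3.83). Cldn10 was also high outside the luminal group, with 588 CPM in cluster 3 and 1624 CPM in cluster 13. Of 8 junction genes compared 1 was at least 2 times higher (Cldn10) and 1 lower (Cldn4), with a median ratio of 0.810, where 0.791% of all genes were higher and 3.03% lower.

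The most abundant RNA of the leading genes was that of Aoc1, diamine oxidase, the secreted enzyme that breaks down histamine and putrescine (chromosome 6:48872896-48909188, plus strand). It reached 1025 CPM (987 to 1063) in cluster 10 and 209 CPM in the other luminal clusters, 4.91 times as high (4.71 to 5.11). By cluster it ran from 39.5 CPM in cluster 5 to 195 CPM in cluster 6, with only cluster 11, at 1175 CPM, above cluster 10. After thinning, 73.2% of cluster 10 cells (63.2 to 81.7%) had a UMI of Aoc1, as did 27.1% of other luminal cells and 4.99% of mesothelial cells. Cluster 10 and cluster 11 shared the high level of Aoc1.

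Of 13 mucosal secretion and transport genes compared, none was at least 2 times higher and 3 were lower (Aqp4, Serpina1c and Spink12), with a median ratio of 0.920. Of all genes 0.791% were higher and 3.03% lower. Dmbt1, Agr2 and Mmp7, all among the leading 20, are not in that list. Dmbt1, a mucosal glycoprotein that binds microbes, stood at 58.3 CPM against 12.5 CPM, and Agr2, a disulfide isomerase that mucin-secreting cells need, at 68.8 CPM against 17.5 CPM. Mmp7, the epithelial metalloproteinase matrilysin, was 2.60 times as high as in the other luminal clusters (68.8 against 26.4 CPM) but far under its 669 CPM in cluster 3 and 751 CPM in cluster 8. Ccl28, a mucosal chemokine that was not among the leading 20, was at 129 CPM against 62.1 CPM. The antimicrobial proteins Ltf (lactoferrin) and Lcn2 (lipocalin) were under 2 times higher, Ltf at 4354 CPM against 2570 CPM and Lcn2 at 12888 CPM against 8151 CPM, with only cluster 11 higher among the 9 luminal clusters.

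Of 9 unfolded protein response genes compared, 1 (Sdf2l1) was at least 2 times higher and none lower, where 0.791% of all genes were higher, and the median ratio was 1.31 where that of all genes was 1.03. Sdf2l1, a chaperone partner in the endoplasmic reticulum, was at 155 CPM against 71.7 CPM, and Herpud1 was 1.68 times and Pdia4 1.51 times as high, while Atf4 was 0.704 times as high. Outside this list, Fkbp11, a prolyl isomerase of secretory cells, was at 125 CPM against 54.7 CPM, and Srprb, which anchors the receptor for the signal recognition particle, at 61.9 CPM against 29.0 CPM.

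The remaining genes of the leading 20 had mixed roles. Ada, adenosine deaminase, was at 94.8 CPM against 32.6 CPM, and Cbs, cystathionine beta-synthase, at 58.6 CPM against 24.3 CPM. Vkorc1, which recycles vitamin K, was at 58.6 CPM against 27.4 CPM. Gng4, a G protein subunit, was at 59.7 CPM against 14.3 CPM, and Ppp1r1b, a phosphatase inhibitor, at 68.4 CPM against 30.6 CPM. Tmem158 was at 115 CPM against 27.7 CPM, and the desmosomal cadherin Dsc2 at 209 CPM against 95.6 CPM. Tmem56, Mgat4c and Apobec2 were between 2.14 and 2.43 times as high. Yam1, a long noncoding RNA, was at 110 CPM against 48.1 CPM.

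**Figure D1:**
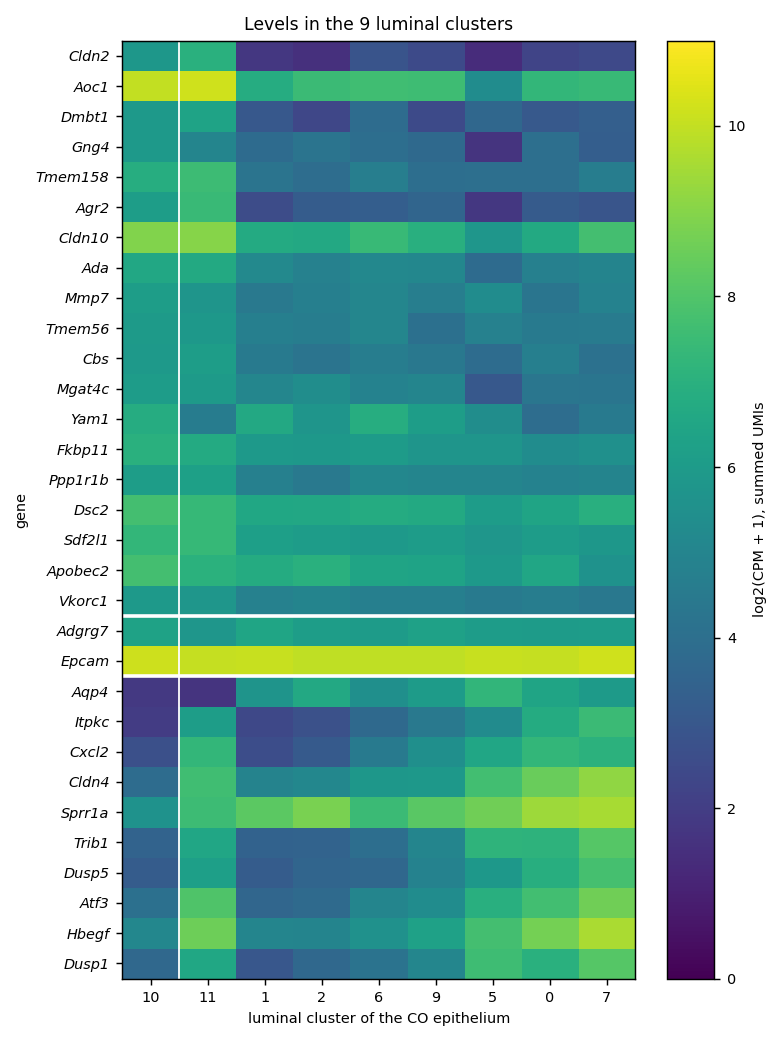
Heat map of log2(CPM + 1) from summed UMIs for 19 of the 20 genes with the highest ratios, Adgrg7 and Epcam, and the 10 with the lowest ratios (rows) in the 9 luminal clusters of the CO epithelium (columns, cluster 10 first). The upper block is high in clusters 10 and 11 except for Yam1, which is low in cluster 11, and in the lower block Trib1, Dusp5, Atf3, Hbegf and Dusp1 are within 2 times of their cluster 10 level in clusters 1, 2 and 6.

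Cluster 11, another 97 cells, shared nearly all of these genes. Clusters 10 and 11 were the highest pair of the 9 luminal clusters for 22 of the 23 genes, with the exception of Yam1 (110 CPM in cluster 10, 116 CPM in cluster 6 and 23.6 CPM in cluster 11). The same pair was highest for 341 (11.7%) of all 2908 genes, and for 31.9% of the 1068 genes that had cluster 10 in the highest pair, which is the closer background because the 23 genes were chosen for a high level in cluster 10. Cluster 11 was the higher of this pair for 13 of the 23, by 2.51 times for Agr2 and 2.23 times for Cldn2, and cluster 10 was the higher for Gng4, by 1.91 times. Foxa2, a transcription factor of the glands, differed within the pair. It had 14 UMIs in cluster 10, which is 5.07 CPM (2.77 to 8.50), against 21.8 CPM in cluster 11 and 82.0 CPM in cluster 13.

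The single cells varied widely within cluster 10. Together, 7 leading genes (Cldn2, Aoc1, Dmbt1, Gng4, Tmem158, Agr2 and Cldn10) made up 0.142% of a cell's UMIs at the median, and ran from 0.00427 to 0.445%. In cluster 11 the median was 0.217% and in cluster 1 it was 0.0174%. Clusters outside the luminal group also reached such shares, with medians of 0.169% in cluster 13 and 0.0899% in cluster 8. Cldn10, 1 of the 7, was itself high in cluster 13, so a like share does not mean that all 7 genes were shared. Of the 97 cells 74 (76.3%) lay above the 90th percentile of the cells of clusters 1, 2 and 6, so that 23 cells of cluster 10 did not exceed that level. In thinned cells a median of 6 of the 20 leading genes had a UMI in both cluster 10 and cluster 11, against 2 in the other luminal cells together. In clusters 8 and 13 the median was 3. The leading genes were chosen for high ratios in cluster 10, so higher shares and counts there follow from the choice and test nothing. Over the 97 cells, the correlations between the 7 genes on the log2(CPM + 100) scale ran from -0.0722 (Gng4 with Agr2) to 0.515 (Cldn2 with Cldn10). Those of single genes with the cell's log2 UMIs ran from 0.0292 (Dmbt1) to 0.306 (Aoc1). The part of depth in the correlations between genes was not tested.

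The lowest ratio in cluster 10 was that of Aqp4, the mercurial-insensitive water channel (chromosome 18:15389496-15410982, minus strand). It had 7 UMIs in the whole cluster, 2.53 CPM (1.02 to 5.22), against 79.0 CPM in the other luminal clusters, 31.2 times lower (15.1 to 77.6). Cluster 11 was as low, at 2.13 CPM, while the other 7 luminal clusters had between 43.4 and 152 CPM. After thinning 1 cell of 97 had a UMI of Aqp4 in cluster 10 (1.03%), as in cluster 11, which is the 1.13% of mesothelial cells and so reads as background. Sprr1a, a cornified envelope protein, was at 48.1 CPM against 467 CPM, 9.69 times lower (8.17 to 11.6), and cluster 11 had 187 CPM.

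The other 8 genes among the 10 lowest had several roles. Itpkc, an inositol trisphosphate kinase, was at 2.90 CPM against 56.4 CPM. The chemokine Cxcl2 was at 5.43 CPM against 79.9 CPM, and the claudin Cldn4, which tightens the junction to sodium, at 13.8 CPM against 198 CPM. Trib1, Dusp5 and Dusp1, which restrain kinase signalling, the transcription factor Atf3 and the growth factor Hbegf were between 7.24 and 8.32 times lower. Each of these 8 genes stood at 68.5 CPM or more in cluster 11, which did not share the low level.

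Of the 18 immediate early genes, all compared, 15 were at least 2 times lower in cluster 10 than in the other luminal clusters, and none was higher. Their median ratio was 0.219 where that of all genes was 1.03. Fos stood at 251 CPM against 1122 CPM, Jun at 101 CPM against 537 CPM, Egr1 at 63.0 CPM (54.0 to 73.1) against 413 CPM, and Fosb at 42.0 CPM against 297 CPM. Jund, Ier3 and Klf4 were between 0.556 and 0.780 times as high. Of 10 inflammatory genes compared, 6 were at least 2 times lower, where 3.03% of all genes were, among them Tnfaip3, which shuts off NF-kB signalling, and Cxcl1, and 1 was higher (Ccl28). All 18 inflammatory genes of the list together summed to 858 CPM in cluster 10 and to 629, 703 and 773 CPM in clusters 1, 2 and 6. Of 9 heat shock genes compared, 2 were lower, the chaperones Dnajb1 (44.5 against 249 CPM) and Hspa1a (22.1 against 52.2 CPM), and the median ratio of the list was 0.910.

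These ratios rest on which clusters were in the comparison. The 18 immediate early genes summed to 2669 CPM in cluster 10, to 2367, 2423 and 2966 CPM in clusters 1, 2 and 6, and to 13027 and 12237 CPM in clusters 0 and 11. In single cells they made up 0.215% of UMIs at the median in cluster 10, 0.210% in cluster 1 and 1.33% in cluster 11. None of the 97 cells of cluster 10 exceeded the median of cluster 0, 1.37%, and 45 of the 97 cells of cluster 11 did. The median depth was 22002 UMIs in cluster 10, 22184 in cluster 1, 34009 in cluster 11 and 27128 in cluster 0, and the median mitochondrial share was 11.9% in cluster 10, 8.70% in cluster 11 and 8.06% in cluster 0. Clusters 7, 2 and 6 were picked after their values were seen and do not stand for all 9 luminal clusters. Cluster 7, with the highest immediate early sum of the 9 (16304 CPM), had a median of 23436 UMIs and a mitochondrial share of 15.1%, and cluster 2, with a median immediate early share of 0.206%, had 34712 UMIs and 10.7%. Cluster 6, with a median immediate early share of 0.245%, had 16393 UMIs and 18.4%. The study had freed the cells from the tissue with trypsin, in part in a warm water bath, before they were captured. The parts of this step, of depth and of mitochondrial share in the difference were not tested.

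**Figure D2:**
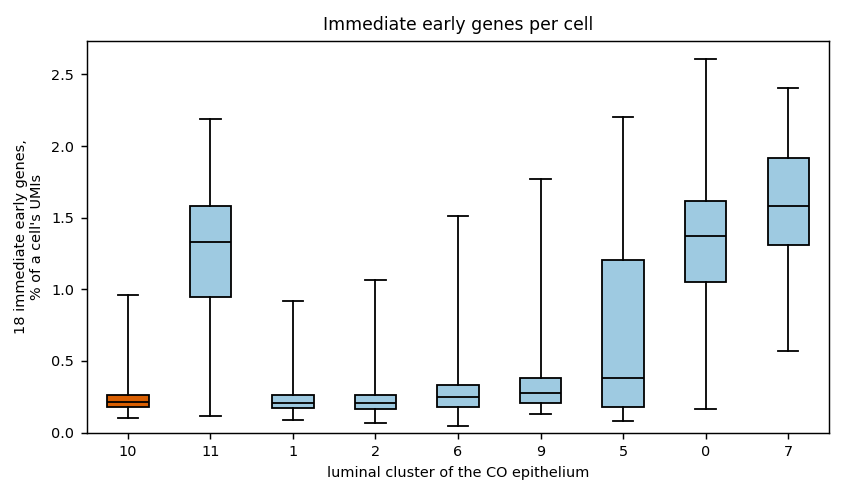
Share of a cell's UMIs (percent) from 18 immediate early genes in the 9 luminal clusters. Boxes span the quartiles, lines mark the medians and whiskers reach the lowest and highest cell. The median of cluster 10 was 0.215%, near those of clusters 1, 2 and 6, and cluster 11 had 1.33%.

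**Figure D3:**
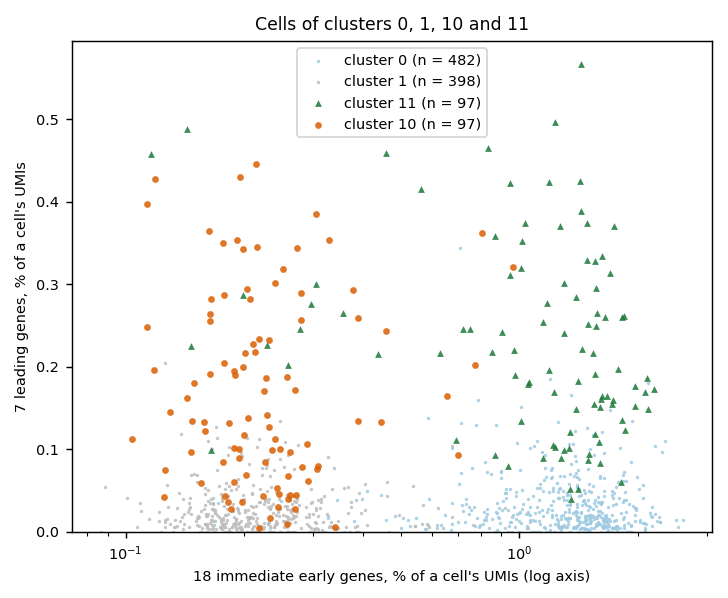
Each point is a cell of cluster 0, 1, 10 or 11, with its share of UMIs from 18 immediate early genes (percent, log axis) against its share from 7 leading genes of cluster 10 (percent). These 7 genes were chosen for high ratios in cluster 10. Of the 4 clusters plotted, 10 and 11 reach the higher shares of the leading genes (clusters 13 and 8, not plotted, had medians of 0.169 and 0.0899%), and in immediate early genes the median of cluster 10 lies near that of cluster 1 and the median of cluster 11 near that of cluster 0.

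The 3 luminal clusters most like cluster 10, by the correlation of log2(CPM + 10) over 2908 genes, were clusters 1 (r = 0.977), 2 (0.972) and 6 (0.970), followed by clusters 9 (0.960) and 11 (0.945). Cluster 4, the luminal progenitors left out of this ranking, had r = 0.961. Against clusters 1, 2 and 6 pooled, 23 of 2820 genes (0.816%) were at least 2 times higher in cluster 10 and 24 (0.851%) at least 2 times lower. Of the 20 leading genes 13 had a larger ratio than against all other luminal clusters and 7 a smaller one. Cldn2 was 21.1 times as high, Agr2 10.2, Dmbt1 8.84, Aoc1 6.82 and Tmem158 6.67 times. The smaller ratios included those of Gng4 (3.88), Fkbp11 (2.07), Dsc2 (2.17) and Vkorc1 (2.07), and Mgat4c (1.86), Apobec2 (1.80) and Yam1 (1.37) fell under 2 times. None of 12 immediate early genes compared passed 2 times in either direction, and their median ratio was 1.218 where that of all genes was 1.02. Of 5 inflammatory genes compared none was lower and 2 were higher, with a median ratio of 1.06. Within the lower genes, Aqp4 stood 28.1 times, Sprr1a 7.29 times and Serpina1c, a secreted protease inhibitor, 7.08 times below clusters 1, 2 and 6. The pooled level of Serpina1c leaned on cluster 2, at 415 CPM, with 102 CPM in cluster 1 and 100 CPM in cluster 6.

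Against cluster 11 alone, 18 of 2957 genes (0.609%) were at least 2 times higher in cluster 10 and 125 (4.23%) at least 2 times lower. Here 16 of 18 immediate early genes and 11 of 12 inflammatory genes compared were lower in cluster 10, with median ratios of 0.130 and 0.149 where that of all genes was 1.02. Itpkc, Cxcl2 and Atf3 stood 23.7, 28.3 and 16.1 times below cluster 11. The genes above cluster 11 included Yam1 (4.64 times) and Lrrc26, a subunit of potassium channels in secretory epithelia (2.13 times).

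Of the 88 lower genes, 57 stood at less than 2 times the cluster 10 level in each of clusters 1, 2 and 6. For 15 genes the level was more than 2 times that of cluster 10 in each of those clusters, and 13 of these 15 were under 2 times the cluster 10 level in cluster 11. The 15 were Aqp4, Cldn4, Sprr1a, Pcdh17, Serpina1c, Ndrg1, Mxd1, Spink12, Prap1, S100a6, Med24, Mmp23, Mal, Ptrf and Laptm5, and the exceptions were Cldn4 and Sprr1a. Of these only Aqp4, Cldn4, Sprr1a, Serpina1c, Ndrg1 and Spink12 were named by the rule for named genes, and the other 9 were named after their values were seen. Cldn4, Mxd1, Ndrg1 and Pcdh17 were under 50 CPM in clusters 1, 2 and 6 pooled, so they were outside the comparison with those clusters. Prap1, a secreted acidic protein of the uterine epithelium, was at 741 CPM in cluster 10, 309 CPM in cluster 11 and 3105, 3512 and 2484 CPM in clusters 1, 2 and 6. S100a6, a calcium-binding protein, was at 155, 145, 474, 802 and 369 CPM in the same clusters. Spink12, a protease inhibitor, was at 510, 297, 1943, 2324 and 1887 CPM.

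The other lists are read against the 0.791% of all genes that were at least 2 times higher and the 3.03% that were at least 2 times lower. Of 7 interferon-stimulated genes compared 2 were at least 2 times lower, Irf7 (2.19 times) and Ifit1 (2.17 times), with a median ratio of 0.720. Of 10 glycolysis genes 1 was lower (Hk2), with a median of 0.799. Of 5 hypoxia-induced genes 2 were lower (Ndrg1 and Egln3), and Car12, a carbonic anhydrase, was 1.72 times as high. Of 4 p53 target genes compared 1 was lower, the cell cycle inhibitor Cdkn1a at 38.0 CPM against 86.5 CPM, with a median ratio of 0.602. Against clusters 1, 2 and 6 Ccng1 (0.446 times as high) was the 1 that passed, and Cdkn1a (0.625 times) did not. The lists with no member past 2 times in either direction were those of 12 mitochondrially encoded genes (median ratio 1.11), 21 nuclear respiratory chain genes (1.10), 76 ribosomal protein genes (0.945), 5 antigen presentation genes (1.09), 5 extracellular matrix genes (0.878), 3 Wnt pathway genes (0.788), 2 gland genes (1.62), 2 steroid receptor genes (1.25) and 2 proposed stem cell genes (0.862). Of the 13 estrogen-induced luminal genes 1 was lower (Sprr1a), with a median of 1.23. The estrogen receptor gene Esr1 was at 232 CPM against 227 CPM and the progesterone receptor gene Pgr at 120 CPM against 80.8 CPM. Of the 16 cell cycle genes 1 reached the minimum level (Hmgb2, 0.853 times), and their sum was 210 CPM against 242 CPM.

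Sequence before the RefSeq start of some of these genes is shown for immediate early genes because 15 of 18 were low together, and for Aoc1 as the most abundant leading gene. The 250 bases before the annotated start in RefSeq (GRCm38.p6) were searched on both strands for TGACGTCA, the cyclic AMP response element, and for TGACTCA, the element bound by Fos and Jun dimers. TGACGTCA was found for 3 of the 15 immediate early genes with a promoter in the table (Btg2, Dusp1 and Ppp1r15a) and in 1.55% of all 32851 promoters. TGACTCA was found for 2 of the 13 leading genes with a promoter in the table (Aoc1 and Mmp7) and in 4.46% of all promoters. A gene was counted once if any promoter listed for it matched, while the percentages are over promoters, so the units differ. TGACGTCA was in none of these 13 leading genes, and TGACTCA in none of these 15 immediate early genes. Each stretch below is on the strand of its gene with up to 60 bases on either side and the element in capitals, for Dusp1 chr17:26508548-26508675 (minus strand), for Btg2 chr1:134079254-134079381 (minus strand) and for Aoc1 chr6:48904795-48904921 (plus strand). GENCODE M21 starts Aoc1 and Dusp1 further upstream than this table, so these 2 stretches lie inside the spans it gives the genes.
Dusp1: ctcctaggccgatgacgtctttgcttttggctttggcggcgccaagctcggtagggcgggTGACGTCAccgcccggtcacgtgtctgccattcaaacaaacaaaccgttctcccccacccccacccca
Btg2: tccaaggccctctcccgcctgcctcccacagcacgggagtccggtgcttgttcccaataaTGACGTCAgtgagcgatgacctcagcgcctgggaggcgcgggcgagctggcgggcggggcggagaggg
Aoc1: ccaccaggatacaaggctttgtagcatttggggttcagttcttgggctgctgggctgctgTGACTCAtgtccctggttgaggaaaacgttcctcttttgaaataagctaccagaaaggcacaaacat
A match to these letters is a description of the sequence and was not tested for binding.

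No cell of cluster 10 belongs to the DES library, so its genes were read there over the 4608 clustered DES epithelial cells (164049137 UMIs) and in each of the 16 DES clusters. The study had removed basal cells, by their Krt14 and Trp63 counts, before it formed these DES clusters. With 1 library per treatment, no test was made. Aoc1 was at 15.03 CPM in DES epithelium and at 62.4 CPM at most in any DES cluster, against 1025 CPM in cluster 10. Cldn2 was at 3.21 CPM (highest cluster 10.5), Dmbt1 at 2.01 CPM (21.4) and Ada at 15.2 CPM (24.2), so that no DES cluster reached the cluster 10 level of these genes. Dsc2, at 25.9 CPM against 209 CPM, and Sdf2l1, at 33.7 CPM against 155 CPM, were likewise below it in all 16 clusters. Other leading genes were as high or higher in DES cells. Cldn10 was at 874 CPM and reached the cluster 10 level in all 16 DES clusters, and Tmem158 was at 425 CPM and did so in 15. Adgrg7 was at 16.3 CPM and reached the cluster 10 level in none.

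The low genes of cluster 10 were read the same way. Of the 10 lowest, 9 lay between the lowest and the highest DES cluster, and Cldn4, at 13.8 CPM, lay under all 16 (34.2 to 194 CPM). Aqp4 was at 8.47 CPM in DES epithelium, against 79.0 CPM in the other CO luminal clusters. It stood at 87.8 CPM in DES cluster 5, which the study calls the cancer cells, and reached the cluster 10 level in 11 of 16 clusters. Serpina1c was at 373 CPM in DES cells against 33.7 CPM in cluster 10, and at or above that level in all 16 clusters. The 18 immediate early genes summed to 1924 CPM in DES epithelium, with a median of 1423 CPM over the DES clusters and 12301 CPM in DES cluster 9.

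**Figure D4:**
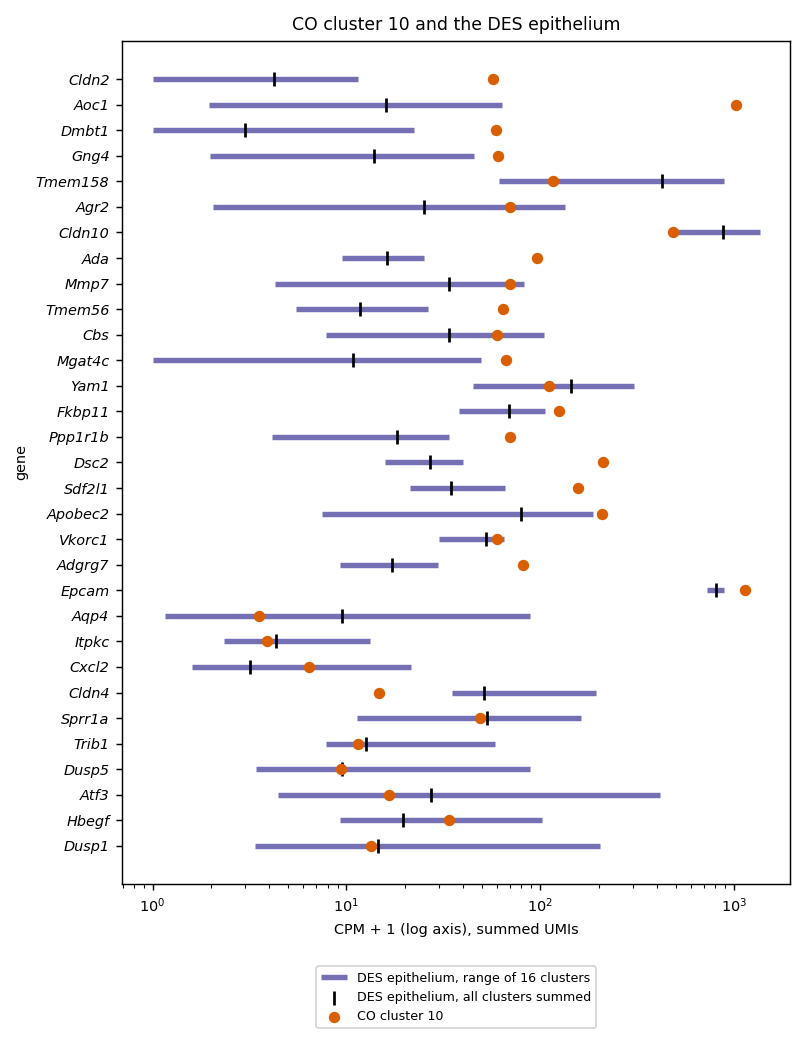
Levels (CPM + 1, log axis) of 19 of the 20 leading genes, Adgrg7, Epcam and the 10 lowest genes in CO cluster 10 (circles), in all clustered DES epithelial cells (ticks) and over the 16 DES clusters (bars from the lowest to the highest cluster). Cluster 10 lies to the right of the whole DES range for Aoc1, Cldn2, Dmbt1, Ada and Dsc2, and at or left of its lower end for Cldn10 and Cldn4.

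The uterine sections, each summed over all its spots, gave the only replicated comparison, 2 DES against 2 CO sections with edgeR's quasi-likelihood test. They hold all cell types of the cored areas, and in them fewer cells of a type and less RNA per cell cannot be told apart. The study describes cancer regions in the DES tissue, so exposure and tumour cannot be told apart in the sections either. By the study's description CO section B had a tissue fold and DES section B was of limited use for clustering. P-values measure the spread between these sections. Of 14098 genes tested, 376 (2.67%) were higher and 371 (2.63%) lower in DES at a Benjamini-Hochberg adjusted p under 0.05, 5.3% in all. Of the 20 leading genes of cluster 10, all tested, none passed in either direction with edgeR. An unadjusted p under 0.05 was found for 5 of them, where 24.4% of all genes had one, and DESeq2 called 6, where it called 12.2%. For Aoc1 the CO sections had 309 and 51.0 CPM and the DES sections 6.91 and 138 CPM, so the groups overlapped (log2 DES over CO -1.51, SE 1.46, adjusted p 0.591). For Cldn2 CO section A stood alone at 16.3 CPM, with 0.453 CPM in CO section B and 0.987 and 0.607 CPM in the DES sections (adjusted p 0.251). Adgrg7 was lower in both DES sections, at 1.97 and 2.94 CPM against 10.6 and 6.71 CPM, but missed the threshold (log2 -2.02, SE 0.42, adjusted p 0.0663). Aoc1, Cldn2, Dmbt1, Ada, Dsc2 and Sdf2l1 were under cluster 10 in all DES clusters of single cells. In the sections both groups overlapped for these genes except Dsc2. It had 146 and 121 CPM in DES against 93.5 and 30.4 CPM in CO (adjusted p 0.395). The DES clusters lacked basal cells, which the sections include, and their part was not tested.

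Among the 10 lowest genes of cluster 10, 9 were tested and 3 were higher in DES sections. Aqp4 stood at 171 and 176 CPM in the DES sections and at 29.3 and 26.5 CPM in the CO sections (log2 2.43, SE 0.18, adjusted p 0.0177). Sprr1a stood at 1409 and 1000.1 CPM against 121 and 88.7 CPM (log2 3.31, SE 0.29, adjusted p 0.0206), and Cldn4 at 163 and 116 CPM against 18.6 and 34.9 CPM (log2 2.18, SE 0.35, adjusted p 0.0399). The DES sections lay above both CO sections for all 3 genes. In the single cells Aqp4 went the other way, lower in the clustered DES epithelium without basal cells than in the other CO luminal clusters. Cldn4 did too, as each of the 16 DES clusters lay under the 198 CPM of those CO clusters. The cell type markers of the sections differed as well. All 6 smooth muscle markers were lower in DES, summing to 3562 and 4036 CPM against 14758 and 16169 CPM, as were 3 of 9 stromal and 3 of 5 pericyte markers, while 1 pericyte, 2 of 5 mesothelial and 1 of 6 lymphocyte markers tested were higher. The 3 basal markers summed to 9526 and 5644 CPM in DES against 3.36 and 160 CPM in CO, with none past the threshold, and the 5 epithelial markers to 3048 and 3283 CPM against 2938 and 1824 CPM, also with none. The part of these differences in the levels of Aqp4, Sprr1a and Cldn4 was not tested. Without DES section A the adjusted p rose to 0.0707 for Aqp4, 0.0611 for Sprr1a and 0.170 for Cldn4, without DES section B to 0.0890, 0.0604 and 0.131, and with the section letter as a block Cldn4 was at 0.0571. Of all 88 lower genes 85 were tested, and 6 were higher and 4 lower in DES, where 2.67% of all genes were higher and 2.63% lower. Of the 17 immediate early genes tested 1 was higher and 1 lower, which gave no common direction, and their median log2 difference was -0.14 where that of all genes was -0.01.

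**Figure D5:**
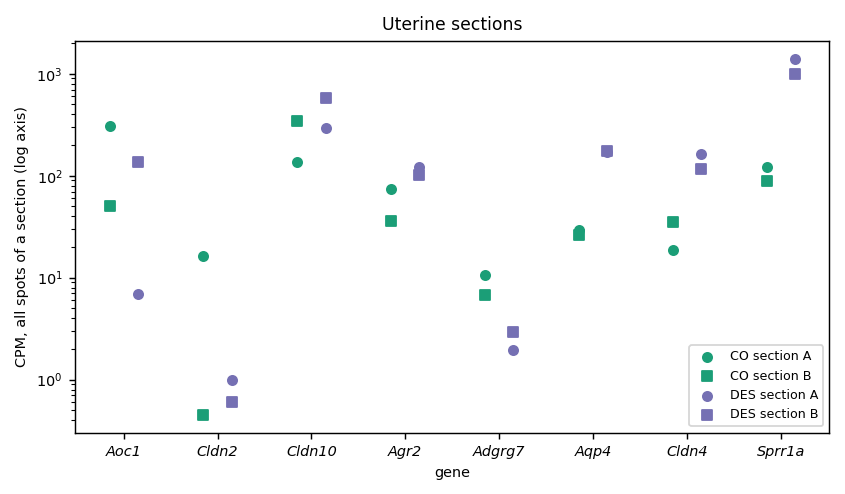
Levels (CPM over all spots of a section, log axis) of 5 genes high in cluster 10 or in the luminal epithelium and of Aqp4, Cldn4 and Sprr1a in the 2 CO and 2 DES sections, each point 1 section (circles A, squares B). The DES sections lie above both CO sections for Aqp4, Cldn4 and Sprr1a, and the groups overlap for Aoc1 and Cldn2.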

How the data were processed

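Single cells were profiled with the Chromium 3' v3 kit and sections with Visium slides. The authors made UMI counts per gene with Cell Ranger 3.0.1 (cells) and Space Ranger 1.2.2 (spots), after bcl2fastq 2.20.0.422, on mm10 (names and versions from the submitters' processing notes), and the deposited counts are not normalized. Clusters and cell types were taken from the deposited metadata. The 2 luminal marker genes, the members and the gene lists were chosen with earlier results of these data known. UMIs were summed per cluster and divided by the total. Genes needed 50 CPM in either group and a UMI in 20% of cells of the higher group. Named genes were the 20 highest and 10 lowest ratios, the markers and study's luminal genes, and up to 4 members of each list with the largest ratios. Other genes named with values (Srprb, Ccl28, Fos, Jun, Jund, Ier3, Klf4, Btg2, Ppp1r15a, Prap1 and S100a6) were chosen after their values were seen. Of the 20 highest, 1 gene is counted but not reported here. A fold against 0 used a floor of 3 UMIs over the group. Shares of cells were taken after thinning to 3000 UMIs with a fixed seed, which left out 17 cells of the other luminal clusters and none of cluster 10. The study's methods remove doublets with scran, and Scrublet (scanpy 1.11.5) was an alternative. Section sums (9117099 to 12506177 UMIs) were tested with edgeR 4.0.16 (TMM, filterByExpr, quasi-likelihood test, Benjamini-Hochberg), which was tested on simulated data, and with DESeq2 1.42.0 as an alternative. The study took 1 section from each of 2 mice a group. Positions were matched by symbol to GENCODE M21 (161 of 162 named genes and markers).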

Additional observations from a re-analysis of the deposited data

How the results depend on the processing

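The counts of 23 higher and 88 lower genes stayed within 1.5 times under cell means, totals that left out the 20 top genes, clusters weighted equally, cluster 11 left out of the comparison, all other clusters as the comparison, Scrublet doublets left out and a filter at 1000 UMIs and 20% mitochondrial UMIs. With a minimum of 20 CPM they were 39 and 169, with no minimum 352 and 529, and with cells thinned to 3000 UMIs the higher genes were 45. Of 38 gene values followed under each setting, 25 were classed as moved and 13 as the same after this thinning. Against clusters 1, 2 and 6, chosen after seeing the data, 24 genes were lower. Among the 38 followed values, log2 ratios turned for Atf3 (0.13), Hbegf (0.0069) and Dusp1 (0.24). Genes outside these 38 turned too, among them Fos (1.21 times as high), Jun (1.47), Egr1 (1.23) and Fosb (1.28). Against cluster 11, also chosen later, log2 ratios among the 38 turned for Cldn2 (-1.16), Aoc1 (-0.20), Dmbt1 (-0.52), Tmem158 (-0.69), Agr2 (-1.33) and Cldn10 (-0.068). They also turned for Ada (-0.086), Cbs (-0.23), Ppp1r1b (-0.15), Sdf2l1 (-0.073) and Aqp4 (0.25). Genes outside the 38 that turned included Serpina1c (4.87 times as high), Prap1 (2.40) and Spink12 (1.72). Against all other clusters Mmp7 turned (-0.51). The share of cluster 10 was 5.08% of the luminal clusters. The share of its cells with a UMI of Adgrg7 was 41.2% at 5000 UMIs and 82.5% without thinning. Aoc1 in DES epithelium was 13.5 CPM as a mean over cells. The cause of these changes was not tested.

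In the sections, DESeq2 called 1748 of all genes with at least 1 count (1717 of the 14098 that edgeR tested), and leaving out 1 section gave from 3 to 2819 genes (2819 without CO section A, 2336 without CO section B, 14 without DES section A and 3 without DES section B, where a lone section is assumed to vary like the other group). Leaving out 1 section moved the log2 difference of Tmem158 from -0.69 to 1.30 and that of Apobec2 from -0.81 to 1.68, and the highest values, without CO section A, passed the threshold. By the study's methods the sections came from separate mice. The correlation of same-lettered deviations was -0.0121, but with 2 sections a group it cannot show whether sections share an animal. With the section letter as a replicate block 527 genes passed. Depth limited single genes, and Aqp4 had 7 UMIs in cluster 10.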
